A study of Homo sapiens with 6 samples.

Results

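Keratins and vimentin are the protein chains of cytoplasmic intermediate filaments, and 7 of their genes were followed here: KRT7, KRT8, KRT10, KRT14, KRT18, KRT19 and VIM. They were taken by name from the 19775 genes that the array annotation names through at least 1 probe set carrying a single gene symbol. The brightest such probe set by mean level stood for each gene. KRT19 had a mean of 4.17 log2 units, below the minimum of 5 set for testing, and is described by its values only. The other 6 were tested. KRT7, with a mean of 6.70, was the tested member nearest to that minimum.

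The cells were A375, a human melanoma line with mutant BRAF, whose EIF4B gene had been knocked out by CRISPR. EIF4B encodes a cofactor that helps the eIF4A helicase unwind mRNA leaders. Both lines compared carry this knockout: KO/LacZ (the knockout line) received LacZ as control by lentivirus, and KO/eIF4B (the rescued line) received wild-type eIF4B. Each was given DMSO vehicle, 10 µM vemurafenib (an inhibitor of mutant BRAF) for 6 h, or the same dose for 18 h, with 1 array for each of the 6 combinations. The labels give no vehicle time, so time in culture and drug cannot be told apart. They state neither whether a line is a single clone nor whether cultures were separate. The p-values therefore measure only the spread among these 6 arrays, which may be technical. In bulk RNA, fewer cells expressing a gene and less RNA per cell cannot be told apart.

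Keratins work in pairs. A type I chain (KRT10, KRT14, KRT18 and KRT19) binds a type II chain (KRT7 and KRT8), and neither forms filaments without a partner. KRT8 with KRT18 is the pair of simple epithelia, KRT14 with KRT5 that of the basal layer of stratified epithelia, and KRT10 with KRT1 that of the layers above it. Vimentin, a type III chain, assembles with itself and is the usual filament of mesenchymal cells and of melanoma cells. Melanoma cells can also hold keratins of simple epithelia beside vimentin.

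The labels were checked first. The EIF4B probe set read 8.40 to 8.53 in the 3 KO/LacZ arrays and 10.07 to 10.28 in the 3 KO/eIF4B arrays, which marks the line that carries the added sequence. Of 15 melanocytic markers with a probe set, 11 had a mean of at least 5, with MIA (a protein secreted by melanoma cells) at 11.51 to 11.95 and SOX10 (a neural crest factor) at 9.86 to 10.57. MLANA and TYRP1, pigment cell genes, were among the 4 dim ones. The array medians over all probe sets were 5.20 to 5.22, so a mean of at least 5 does not by itself show expression. PMEL and TYR, also pigment cell genes, count among the 11 with means of only 5.68 and 5.57. Of 21 epithelial markers with a probe set, 12 had a mean of at least 5, with AP1M2 (a sorting adaptor of epithelial cells) at 8.02 to 8.51 and CDS1 (a lipid synthesis enzyme) at 6.44 to 7.55. The 9 dim ones included the defining markers EPCAM, at 2.32 to 2.73, and CDH1, at 2.94 to 3.24. Of 5 blood cell markers, PTPRC and CD14 were dim, and CD3E, LYZ and HBB had means of 5.76, 6.64 and 6.65. Differences between the 3' and 5' ends of control transcripts, a sign of RNA quality, ranged from 0.13 to 0.18 for ACTB and from -0.01 to 0.04 for GAPDH.

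Promoter sequence was at hand for 3 of the 7 members in RefSeq's GRCh38.p14 table. It is shown so that KRT8, called at 18 h, can be read beside KRT10 and VIM, whose brightest probe sets were not called. This split is not clean. The other VIM probe set was called lower, and the KRT8 call at 18 h was lost in 4 of 15 alternatives with a test. Each run is the 250 bases before a listed start, 5′ to 3′ on the gene's strand: KRT8 chr12:52926470-52926719 on the minus strand, KRT10 chr17:40822615-40822864 on the minus strand and VIM chr10:17227991-17228240 on the plus strand. The KRT8 window precedes 1 of that gene's listed starts, and which start A375 cells use was not tested. Capitals mark matches on either strand to CCGGAA (the core bound by ETS factors), TGANTCA (the AP-1 site) or TATAAA (the TATA box).
KRT8: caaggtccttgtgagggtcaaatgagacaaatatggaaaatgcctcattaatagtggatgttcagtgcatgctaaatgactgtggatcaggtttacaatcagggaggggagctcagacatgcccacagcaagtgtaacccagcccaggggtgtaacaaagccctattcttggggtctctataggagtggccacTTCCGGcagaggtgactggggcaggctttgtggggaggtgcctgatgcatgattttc
KRT10: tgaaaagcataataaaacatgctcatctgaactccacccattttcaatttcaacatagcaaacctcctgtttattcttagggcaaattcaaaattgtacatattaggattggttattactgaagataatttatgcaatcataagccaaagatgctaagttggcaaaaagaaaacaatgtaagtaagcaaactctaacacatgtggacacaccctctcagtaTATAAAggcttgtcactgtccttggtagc
VIM: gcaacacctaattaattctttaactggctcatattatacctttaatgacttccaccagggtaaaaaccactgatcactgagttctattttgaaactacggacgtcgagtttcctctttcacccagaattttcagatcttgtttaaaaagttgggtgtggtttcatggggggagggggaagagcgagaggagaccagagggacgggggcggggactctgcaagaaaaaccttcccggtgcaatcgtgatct
KRT8 held 1 CCGGAA match on the reverse strand, beginning 57 bases before the start, a motif found in 14.5% of the 35116 windows of this length in the table. KRT10 held 1 TATAAA, beginning 29 bases before the start and found in 10.7% of windows. None of these 3 windows held TGANTCA, found in 6.57%, and the VIM window held none of the 3 motifs. A match is a run of letters and not a measured binding site.

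At 18 h of vemurafenib the keratins moved apart. KRT14 rose 2.74-fold and KRT8 1.31-fold, while KRT7 fell 3.44-fold and KRT18 1.72-fold. KRT10 and VIM did not pass the test. That is 4 of the 6 tested members, 2 in each direction, where 51.4% of all 13506 tested genes were called at 18 h, 28.1% higher and 23.3% lower. The members' median change was 0.03 log2 units, against 0.01 over all tested genes. The calls come from an additive limma model of line and treatment over the 6 arrays, with Benjamini-Hochberg adjustment over all tested genes and a threshold of 0.05. In that model the error is the disagreement between the 2 lines.

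**Figure D1:**
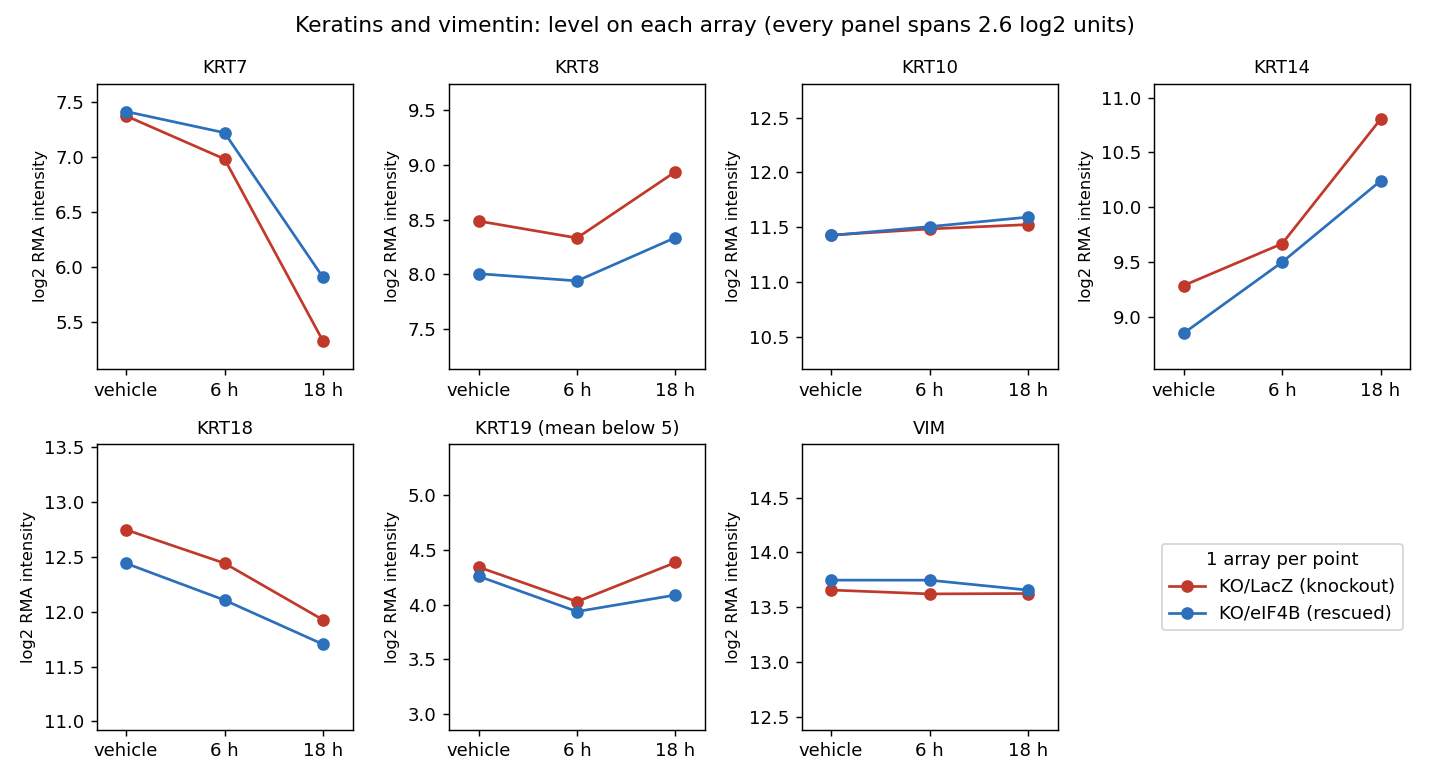
Level of each member (log2 RMA intensity, y axis) under vehicle, 6 h and 18 h of vemurafenib (x axis), with 1 array per point, red for KO/LacZ and blue for KO/eIF4B; all panels span the same log2 range. KRT14 climbs to 10.80 and 10.24 at 18 h, KRT7 drops to 5.32 and 5.90, and VIM stays between 13.62 and 13.75.

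KRT14, the type I chain of basal keratinocytes, read 9.29 in KO/LacZ and 8.85 in KO/eIF4B under vehicle (all levels are log2 RMA intensities). It read 9.67 and 9.50 at 6 h, and 10.80 and 10.24 at 18 h. Within each line it was higher at each later time, and both 18 h arrays lay above the other 4. The change at 6 h was 0.51 log2 units (SE 0.11, adjusted p = 0.034, limma), and at 18 h it was 1.45 (SE 0.11, 95% interval 1.18 to 1.72, adjusted p = 0.00056, limma). Between 6 h and 18 h it rose by 0.94 (SE 0.11, adjusted p = 0.0047, limma). The call at 6 h was lost without the KO/LacZ vehicle array (adjusted p = 0.13, limma), the KO/eIF4B vehicle array (0.18) or the KO/eIF4B 6 h array (0.13). The call at 18 h held in all 15 alternatives that had a test. KRT14 had a single probe set, so the alternatives by probe set kept its values and could not check its rise. KRT5, the usual type II partner of KRT14, read 5.60 to 5.88 on the 6 arrays, where the array medians were 5.20 to 5.22. It differed by -0.01 at 18 h (SE 0.07, adjusted p = 0.93, limma).

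KRT8, the type II chain of simple epithelia, read 8.49, 8.33 and 8.94 in KO/LacZ under vehicle, 6 h and 18 h. In KO/eIF4B it read 8.01, 7.94 and 8.34. In each line the 18 h array was the highest and the 6 h array the lowest, but the treatments overlap across lines, since the KO/LacZ vehicle array lay above the KO/eIF4B 18 h array. The change at 6 h was -0.11 (SE 0.07, adjusted p = 0.36, limma), and at 18 h it was 0.39 (SE 0.07, 95% interval 0.20 to 0.58, adjusted p = 0.0088, limma). From 6 h to 18 h it rose by 0.50 (SE 0.07, adjusted p = 0.0082, limma). The 18 h call was lost without the KO/LacZ vehicle array (adjusted p = 0.067, limma) or the KO/eIF4B vehicle array (0.057), and that from 6 h to 18 h without the KO/LacZ 6 h array (0.062).

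KRT18, the type I partner of KRT8, went the opposite way. It read 12.75, 12.44 and 11.93 in KO/LacZ and 12.44, 12.11 and 11.70 in KO/eIF4B, lower at each later time within each line. Both 18 h arrays lay below the other 4. The fall was 0.32 log2 units at 6 h (log2 change -0.32, SE 0.06, adjusted p = 0.032, limma). At 18 h the change was -0.78 (SE 0.06, 95% interval -0.94 to -0.62, adjusted p = 0.00070, limma), and between the times it was -0.46 (SE 0.06, adjusted p = 0.0071, limma). The 6 h call was lost without any 1 of the 4 vehicle and 6 h arrays (adjusted p of 0.22 without KO/LacZ vehicle, 0.19 without KO/eIF4B vehicle, 0.11 without KO/LacZ 6 h and 0.17 without KO/eIF4B 6 h, limma). The call between the times was lost without the KO/LacZ 6 h array (0.059), and the 18 h call held in all 15 alternatives that had a test. KRT8 and KRT18 each had a single probe set, both of the x_at kind, whose probes can also match other transcripts. Cross-hybridisation was not tested. Across the 6 arrays the levels of KRT8 and KRT18 had a Pearson r of -0.18, a description over arrays that share treatments and lines.

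KRT7, a type II chain of ducts and glands, had the largest fall at 18 h of the 6 tested members. Its brightest probe set read 7.37, 6.98 and 5.32 in KO/LacZ and 7.41, 7.22 and 5.90 in KO/eIF4B. The 18 h arrays lay at least 1 log2 unit below every other array. The change at 6 h was -0.29 (SE 0.13, adjusted p = 0.20, limma), at 18 h -1.78 (SE 0.13, 95% interval -2.12 to -1.44, adjusted p = 0.00059, limma), and between 6 h and 18 h -1.49 (SE 0.13, adjusted p = 0.0032, limma). Both calls held without any single array.

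A second KRT7 probe set above the minimum did not show this fall. It read 6.45, 6.58 and 6.08 in KO/LacZ and 6.47, 6.39 and 6.35 in KO/eIF4B. Its change at 18 h was -0.24 (SE 0.11, 95% interval -0.53 to 0.04, adjusted p = 0.13 over 24979 probe sets, limma). The other 2 KRT7 probe sets were dim, at means of 3.97 and 2.88. The positions of these probes on the KRT7 transcripts were not used here, and the fall of KRT7 rests on 1 probe set.

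KRT10, the type I chain of differentiating epidermis, was nearly level. It read 11.43, 11.49 and 11.52 in KO/LacZ and 11.43, 11.51 and 11.59 in KO/eIF4B, a spread of 0.17 over the 6 arrays. The change at 18 h was 0.13 (SE 0.06, 95% interval -0.02 to 0.28, adjusted p = 0.13, limma), and it passed with a mean-dependent prior variance (adjusted p = 0.020, limma). Its other probe sets differed by 0.05 and 0.19 at 18 h, with adjusted p-values of 0.53 and 0.073 (limma, over all probe sets). KRT1, its usual partner, was dim at 3.90 to 4.56.

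VIM was bright on every array. Its main probe set read 13.66, 13.62 and 13.63 in KO/LacZ and 13.75, 13.75 and 13.66 in KO/eIF4B, a spread of 0.13 in all. The change was -0.02 at 6 h (SE 0.06, 95% interval -0.17 to 0.14, adjusted p = 0.87, limma) and -0.06 at 18 h (SE 0.06, 95% interval -0.22 to 0.09, adjusted p = 0.45, limma). Changes of very bright probe sets such as this can be compressed, which was not tested here.

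The other VIM probe set was near the minimum and fell. It read 5.54, 4.78 and 4.87 in KO/LacZ and 5.63, 5.22 and 5.30 in KO/eIF4B, so both vehicle arrays lay above the 4 drug arrays. Its change was -0.59 at 6 h (SE 0.11, adjusted p = 0.024, limma) and -0.50 at 18 h (SE 0.11, adjusted p = 0.012, limma), adjusted over all probe sets. It is also of the x_at kind. Averaging both probe sets gave VIM changes of -0.30 and -0.28, with adjusted p-values of 0.035 and 0.017 (limma). That average is of log2 values, so the dim probe set (mean 5.22) weighs as much as the main one (mean 13.68). The main probe set alone changed by -0.02 and -0.06, so the averaged call comes from the dim one.

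**Figure D2:**
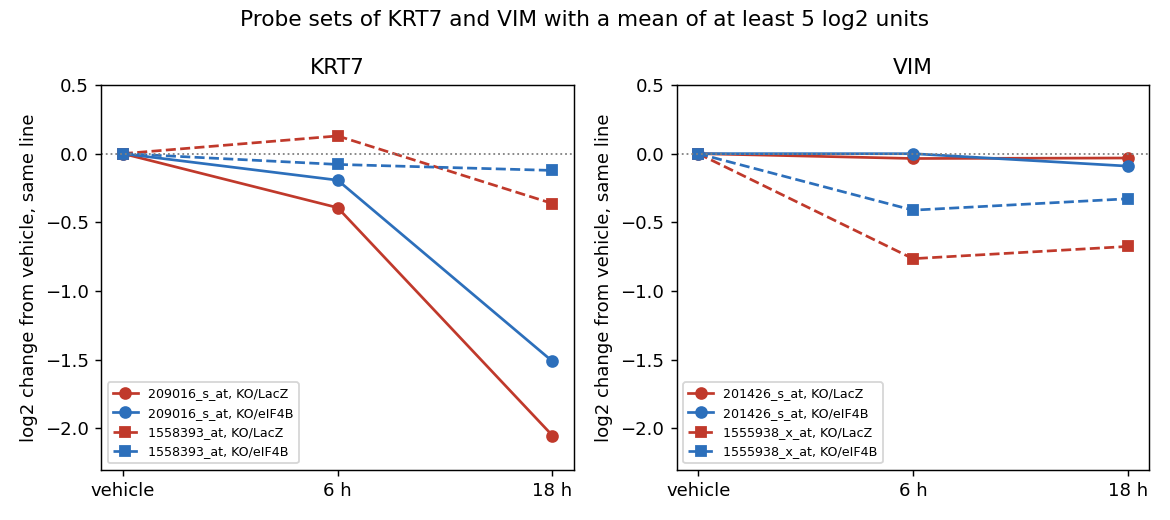
Change from vehicle in the same line (log2, y axis) under vehicle, 6 h and 18 h (x axis) for the probe sets of KRT7 and VIM above the minimum, with 1 array per point and red for KO/LacZ, blue for KO/eIF4B. Solid lines are the probe sets used for the gene and dashed lines the others: for KRT7 the solid lines fall by 2.05 and 1.51 at 18 h and the dashed by 0.36 and 0.12, and for VIM only the dashed lines leave the range near 0.

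KRT19, the type I chain that lacks a tail, was dim on every array. Its brighter probe set read 4.34, 4.03 and 4.38 in KO/LacZ and 4.26, 3.94 and 4.09 in KO/eIF4B, and the other lay between 3.11 and 3.74. No order was read from these values.

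At 6 h 2 of the 6 tested members were called, KRT14 higher and KRT18 lower, where 16.2% of all tested genes were called (7.34% higher and 8.82% lower). Between 6 h and 18 h 4 of 6 were called, KRT8 and KRT14 higher and KRT7 and KRT18 lower, where 34.0% of all tested genes were (19.0% higher and 14.9% lower). The 6 h and 18 h comparisons share their vehicle arrays. Members' medians were -0.06 at 6 h and 0.01 between the times, against 0.03 and near 0 (-0.00044) over all tested genes.

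Centring each array on its median moved all changes at 18 h down by 0.10 log2 units. KRT14, KRT8, KRT7 and KRT18 then changed by 1.35, 0.29, -1.88 and -0.88 at 18 h, all still called, while KRT10 and VIM came to 0.03 and -0.16, neither called. The sign of KRT10 between 6 h and 18 h flipped, from 0.06 to -0.04. Of all genes called, 54.7% were higher at 18 h before centring and 41.8% after it. For 18 h against 6 h these shares were 56.0% and 37.3%, and between the lines 57.6% and 45.6%. Without the filter on dim genes the 6 h calls of KRT14 and KRT18 were lost (adjusted p of 0.057 and 0.063, limma). Without the line term in the model those 6 h calls (0.24 and 0.31), the KRT8 calls at 18 h (0.28) and between the times (0.22), and the KRT18 call between the times (0.099) were lost as well. A test against a minimum change of 0.5 log2 units ended the calls of KRT14 and KRT18 at 6 h, of KRT8 at 18 h, and of KRT8, KRT14 and KRT18 between the times.

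**Figure D3:**
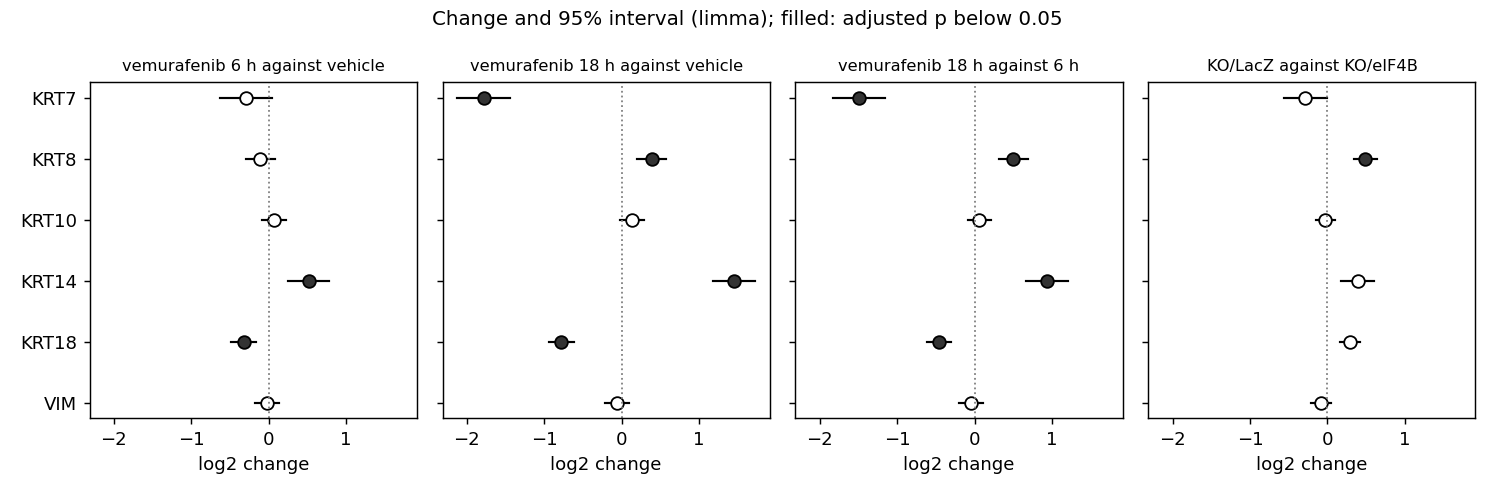
Log2 change (x axis, points) with its 95% interval (lines, limma) for the 6 tested members (y axis) in the 4 comparisons, filled where the adjusted p was below 0.05. KRT7 and KRT18 lie left of 0 and KRT8 and KRT14 right of 0 at 18 h, and KRT8 alone is filled between the lines.

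The next comparison set KO/LacZ against KO/eIF4B over the 3 treatments. Only 1 line with eIF4B restored is set against 1 without it, and the 3 treatments of a line stand in as its replicates. The effect of eIF4B therefore cannot be told apart from any other difference between these lines. KRT8 was higher in KO/LacZ by 0.48 under vehicle, 0.39 at 6 h and 0.60 at 18 h, on average 1.40-fold (log2 difference 0.49, SE 0.06, 95% interval 0.34 to 0.64, adjusted p = 0.035, limma). It was the 1 of 6 tested members called, where 2.50% of all tested genes were (1.44% higher and 1.06% lower). The call was lost when any 1 array was left out (adjusted p of 0.10 to 0.13, limma, log2 differences of 0.44 to 0.54), which leaves 1 residual degree of freedom. It was also lost without the filter on dim genes (0.064), without the treatment term (1.0) and when a difference beyond 0.5 was required.

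KRT14 and KRT18 were also higher in KO/LacZ at each treatment without passing the test. KRT14 differed by 0.43, 0.17 and 0.56 (mean 0.39, SE 0.09, adjusted p = 0.089, limma), and KRT18 by 0.31, 0.34 and 0.22 (mean 0.29, SE 0.05, adjusted p = 0.063, limma). With a prior variance that depends on the mean level, both passed (adjusted p of 0.021 and 0.0041, limma). The KRT18 difference also passed at a minimum mean of 6 (0.041) and with probe sets averaged (0.044), so 3 of its 15 alternatives called it. KRT7 was lower at each treatment, by -0.04, -0.24 and -0.58 as KO/LacZ minus KO/eIF4B (mean -0.29, SE 0.11, adjusted p = 0.20, limma). VIM differed by -0.09, -0.13 and -0.03 (mean -0.08, SE 0.05, adjusted p = 0.38, limma) and KRT10 by 0.003, -0.02 and -0.07 (mean -0.03, adjusted p = 0.76, limma). So 5 of 6 members kept 1 sign in the 3 pairs, as did 47.0% of all tested genes. The members' median was 0.13, against 0.004 over all tested genes. Among the mesenchymal markers FN1, fibronectin, was higher in KO/LacZ by 1.80 under vehicle, 1.60 at 6 h and 1.17 at 18 h (mean 1.52, SE 0.12, adjusted p = 0.028, limma, on an x_at probe set). It was the 1 call among 16 mesenchymal markers, where 2.50% of all tested genes were called. The median of these 16 was -0.07, so the list did not move with FN1. LUM differed the other way, by -0.86, -0.38 and -0.50 (mean -0.58, SE 0.10, adjusted p = 0.061, limma). Of the other marker lists 0 of 12 epithelial, 0 of 11 melanocytic and 0 of 3 blood cell markers were called (limma). The part of FN1 in the KRT8 difference was not tested.

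In RefSeq's order of protein-coding genes, KRT18 lies between KRT8 and EIF4B, so the gene edited in these cells is the next one after KRT18. Both lines carry the EIF4B knockout. Whether the edited alleles are the same in both was not tested, nor was any part of the edit in the keratin differences. Unedited A375 cells were not analysed here.

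Whether the lines responded differently was read as the KO/LacZ change minus the KO/eIF4B change. For the tested members this difference lay between -0.27 (KRT14) and 0.03 (KRT18) at 6 h, and between -0.54 (KRT7) and 0.13 (KRT14) at 18 h. No member reached 1 log2 unit, a size that 20 of 13506 tested genes reached at 6 h and 57 at 18 h. A single time has no residual degree of freedom. A difference shared by both times, added after the data were seen, was largest in size for KRT7 at -0.37 (SE 0.19, 95% interval -0.85 to 0.11, adjusted p = 1.0, limma). In that test limma called 0 of 13506 genes, with 302 at an unadjusted p under 0.05.

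Genes whose 6 centred log2 values lay nearest to a member's were found among all tested genes by the root mean square difference, as a description over 6 arrays. For KRT14 they were GCHFR (0.06 log2 units), FGFR3 (0.10) and RALGDS (0.10), which changed by 1.32, 1.49 and 1.40 at 18 h. For KRT8 they were SOX9 (0.05), SIPA1 (0.06) and ZNF75D (0.06), with changes of 0.32, 0.36 and 0.47. For KRT18 they were BCL2 (0.06), TFDP1 (0.06) and ATP13A2 (0.06), at -0.75, -0.73 and -0.72. For KRT7 they were SGMS2 (0.12), ACTN1 (0.13) and CALB2 (0.13), at -1.62, -1.75 and -1.91.

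Among the other keratins 38 of 49 had a single-symbol probe set and 13 a mean of at least 5. At 18 h 3 of these 13 rose, all type I chains, and 0 fell (limma), where 28.1% of all tested genes rose and 23.3% fell: KRT16 by 1.13, KRT9 by 1.04 and KRT15 by 0.78. The list median was -0.01, against 0.01 over all tested genes. KRT16, a keratin of stressed epidermis, read 4.30, 4.98 and 5.83 in KO/LacZ and 4.69, 5.14 and 5.41 in KO/eIF4B. Under vehicle it lay below the minimum, and it was tested only because of its level in the drug arrays, so its call depends on its own rise. Without it 2 of 12 rose. KRT9, the keratin of palm and sole skin, read 7.30, 7.61 and 8.15 in KO/LacZ and 6.81, 7.26 and 8.03 in KO/eIF4B. KRT9, KRT14 and KRT16 follow each other in RefSeq's gene order, and type I keratins share much sequence. Cross-hybridisation between their probes was not tested. At 6 h and between the lines 0 of 13 passed, where 16.2% and 2.50% of all tested genes were called. Between the times KRT15 (0.89) and KRT9 (0.66) rose, where 19.0% of all tested genes did.

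Filament genes outside the keratins changed in both directions. Of 9 tested, 2 rose and 4 fell at 18 h, with a median of -0.06, where 51.4% of all tested genes were called. NEFL, the light chain of neurofilaments, rose by 0.99 at 6 h and 1.56 at 18 h, from 9.71 to 10.72 and 11.41 in KO/LacZ and from 10.06 to 11.02 and 11.48 in KO/eIF4B. SYNM, synemin, which joins vimentin filaments, rose by 0.60. NES, nestin, a partner of vimentin in progenitor cells, changed by -0.56, and the nuclear lamins LMNB2, LMNB1 and LMNA by -0.52, -0.48 and -0.44. Between the lines NES alone of the 9 was called, where 2.50% of all tested genes were. It was higher in KO/LacZ by 0.36 (SE 0.05, adjusted p = 0.046, limma).

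Among genes that anchor keratin filaments, 8 of 18 tested linker and desmosome genes rose and 5 fell at 18 h, with a median of 0.10, where 28.1% of all tested genes rose and 23.3% fell. Desmoplakin (DSP), which ties keratin to the desmosome, rose by 0.86, and the hemidesmosome plakin DST by 1.16. DSP read 6.59, 7.10 and 7.35 in KO/LacZ and 6.56, 6.89 and 7.50 in KO/eIF4B, higher at each later time in both lines. The desmosomal cadherins DSC2 and DSC3 differed by 1.91 and 1.39. DSC2 read 4.21, 5.55 and 6.36 in KO/LacZ and 4.59, 6.01 and 6.26 in KO/eIF4B, and DSC3 read 4.29, 5.08 and 5.86 in KO/LacZ and 4.71, 5.49 and 5.93 in KO/eIF4B. Both lay below the minimum under vehicle and were tested only because of their drug arrays, so their calls depend on their own rise, and without them 6 of 16 rose. The integrin chain ITGA6 changed by -1.03, plectin (PLEC), which links vimentin and keratin to adhesions, by -0.79, trichoplein (TCHP), a keratin-binding protein, by -0.67 and MACF1 by -0.65. At 6 h 3 of the 18 rose (DSC2, DSC3 and DSP) and 3 fell (MACF1, PLEC and ITGA6), where 7.34% of all tested genes rose and 8.82% fell. Without DSC2 and DSC3, 1 of 16 rose at 6 h. Between the lines 0 of 18 passed (limma), where 2.50% of all tested genes did.

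Kinases and binding partners of filaments were called at 18 h in 15 of 19 cases, 6 higher and 9 lower, with a median of -0.13, where 51.4% of all tested genes were called, 28.1% higher and 23.3% lower. The small heat shock protein HSPB1, which binds filaments, rose by 0.93, and TRADD, a death-domain adaptor that binds KRT18, by 0.73. Among the listed kinases PRKCA rose by 0.73, while PRKCE, ROCK2 and AURKB changed by -1.41, -1.24 and -0.59. Of the other partners STUB1 rose by 0.67 and YWHAH changed by -0.61. HSPB1 was lower in KO/LacZ by -0.35 on the log2 scale as KO/LacZ minus KO/eIF4B (SE 0.05, adjusted p = 0.049, limma). It was the 1 call of 19 between the lines, where 2.50% of all tested genes were called.

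**Figure D4:**
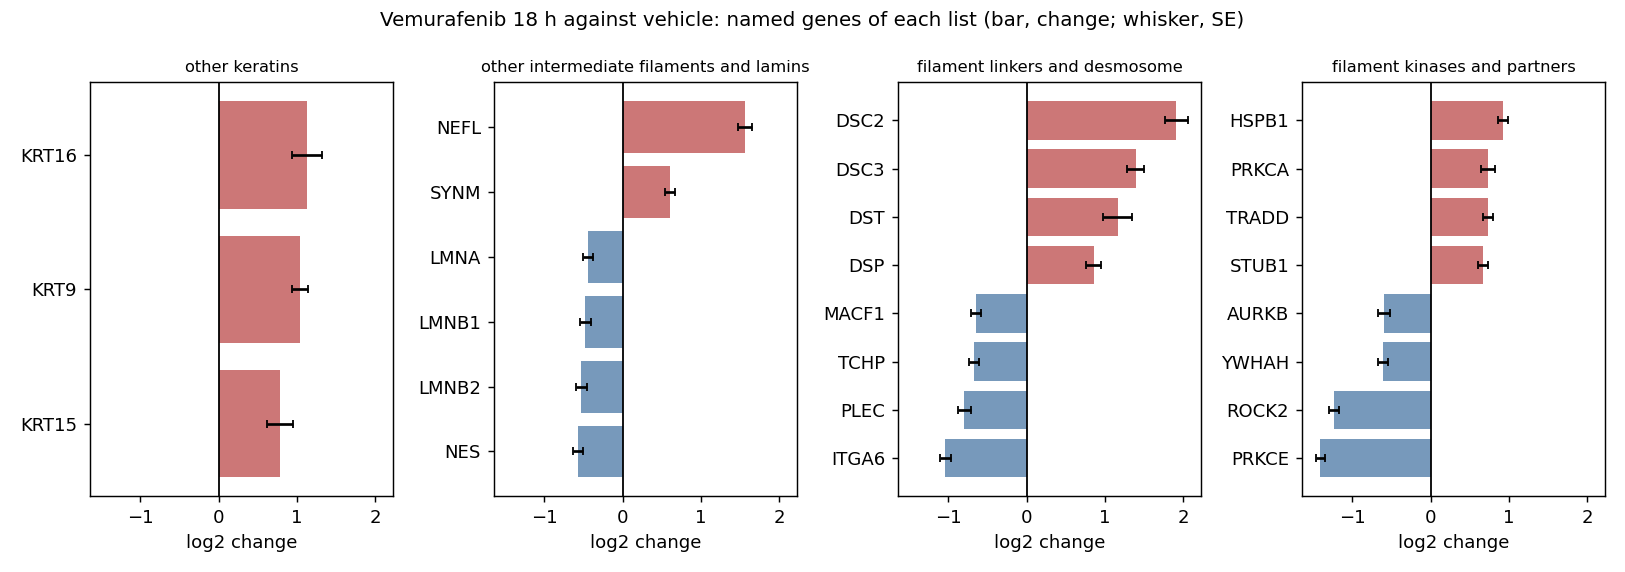
Log2 change at 18 h against vehicle (x axis, bars, with SE as whiskers) for the genes named from 4 lists (y axis): other keratins, other filament chains and lamins, linkers and desmosome genes, and kinases and partners. Bars to the right are genes that rose, such as NEFL at 1.56 and DST at 1.16, and bars to the left genes that fell, such as PRKCE at -1.41; only genes past the threshold are drawn, at most 4 in each direction per list, and KRT16, DSC2 and DSC3 were below the minimum under vehicle.

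Markers of other cell types were set beside the keratins. Of 12 tested epithelial markers 5 rose and 1 fell at 18 h (median 0.10), where 51.4% of all tested genes were called. Those that rose included the transcription factors OVOL2 (0.90), ELF3 (0.63) and GRHL1 (0.56) and the mucin MUC1 (0.43). CDS1 changed by -0.48. OVOL2 read 5.23 and 4.76 under vehicle, on average below the minimum, and without it 4 of 11 rose. The list's summed level lay between 10.07 and 10.38 on the 6 arrays. Summed levels here are the log2 of linear intensities added over all list genes with a probe set, dim ones included. The brightest genes of a list weigh most in them. ESRP1 and GRHL2 were dim, as EPCAM and CDH1 were. Of 16 tested mesenchymal markers 5 rose and 5 fell (median -0.04). LUM rose by 2.49, DCN by 1.78, ZEB2 by 1.66 and TWIST1 by 0.67. TGFBI, ZEB1, FN1 and SNAI1 changed by -1.28, -1.19, -1.09 and -0.55. The summed level of the mesenchymal list lay between 13.78 and 13.90. Of 11 melanocytic markers 4 rose and 2 fell (median 0.04, summed level 12.57 to 13.05). MITF rose by 1.63, GPNMB by 0.89, MIA by 0.38 and S100A1 by 0.28. EDNRB and CSPG4 changed by -0.86 and -0.74. Of 3 blood cell markers LYZ changed by -0.86 (list median -0.01, summed level 7.97 to 8.37). At 6 h the calls were 1 higher and 0 lower of 12 epithelial, 3 and 4 of 16 mesenchymal, 1 and 3 of 11 melanocytic, and 0 of 3 blood cell markers (limma), where 16.2% of all tested genes were called. The part of any such cells in the keratin changes was not tested.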

How the data were processed

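Expression was measured on 6 Affymetrix arrays (U133 Plus 2.0 annotation), 1 per line and treatment. The deposited values are intensities that the authors made with RMA (RMA and affy, per the submitters' processing notes; versions not given in the sources used here). They are linear, from 3.01 to 19000; log2 was taken first, since log2 values had been assumed in the design. RMA normalizes the arrays together, so a shift in total mRNA is not seen, and it compresses very dim and very bright probe sets.

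Of 54675 probe sets, 62 controls stayed out, 41091 carry 1 symbol, 1801 several and 11721 none. Symbols were checked against RefSeq GRCh38.p14 (41037 matched, 0 changed). Genes took their highest-mean probe set; 13506 with a mean of at least 5 were tested with limma 3.58.1 in R 4.3.3 (lmFit, eBayes, line plus treatment, 2 residual and 3.19 prior degrees of freedom). Members were always named. Of each list up to 4 genes each way past the threshold at 18 h against vehicle were named, by size of change. In the other comparisons not all such genes were named. Partners and genes noted after their values were seen (KRT1, KRT5, KRT13, KRT80 and marker examples) were named as well. The members and the gene lists (other keratins, other filaments, linkers, partners, and epithelial, mesenchymal, melanocytic and blood markers) were chosen with earlier results of these data known. The fit was also run on simulated data. These had independent errors drawn from the fitted prior and no line effect, so that run cannot check the error of these arrays. Alternatives changed the filter, probe set rule, centring, prior, model terms, minimum change and arrays.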

Additional observations from a re-analysis of the deposited data

Results flagged for a closer look

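KRT80, a type II keratin, went opposite ways in the lines at 18 h: its log2 change was -0.66 in KO/LacZ and 0.11 in KO/eIF4B. The levels behind this were 8.66 and 8.00 in KO/LacZ and 8.94 and 9.06 in KO/eIF4B, under vehicle and at 18 h. At 6 h the tight junction gene CLDN4 changed by 0.50 in KO/LacZ and -0.11 in KO/eIF4B, and THY1, a surface marker of mesenchymal cells, by 0.30 and -0.21. Under vehicle and at 6 h CLDN4 read 5.28 and 5.79 in KO/LacZ and 5.51 and 5.40 in KO/eIF4B. THY1 read 5.85 and 6.15 in KO/LacZ and 6.08 and 5.87 in KO/eIF4B. Both were dim beside KRT80, with array medians of 5.20 to 5.22. KRT80, CLDN4 and THY1 were the cases, among 101 tested genes of the lists, with opposite signs at least 0.5 log2 units apart. The differences were not tested at a single time, since each rests on 4 arrays without replicates. None of the 6 tested keratin and vimentin members had opposite signs in the lines at either time. The share of all tested genes with opposite signs was not computed, so these counts cannot be read as particular to these genes.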

How the results depend on the processing

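The model pairs the arrays by line through its line term, and its values without that term are given here and beside the members; the labels give no replicate numbers. Over 372 member results with a test under alternatives, 323 kept direction and side of the threshold, 35 lost a call, 9 gained one and 5 changed sign. Of 36 changes within a line, which have no test, 35 kept their sign and 1 did not. The sign changes were KRT7 at 6 h with its other probe set (0.025), VIM at 6 h without the KO/LacZ 6 h array (0.014, with -0.0501 to 0.0143 over all arrays left out in turn), KRT10 between the times after centring (-0.037), and VIM between the times with probe sets averaged (0.021), with its other probe set (0.086) and within KO/LacZ (0.0036); none was called in either form. Averaging the KRT7 probe sets put that gene below the minimum, so this gave no value. The KRT8 difference between the lines lost its call in 9 of 15 alternatives (adjusted p of 0.0064 to 1.0). For the drug calls, 10 in all, KRT14 and KRT18 at 6 h lost theirs in 6 and 7 of 15. The causes were not tested beyond what fewer arrays or genes imply. At 6 h the genes called were 2182, and 1398 without the filter, 3656 over every probe set, 227 beyond 0.5 log2 units and 976 without the line term. At 18 h they were 6947, and 12434 over every probe set and 1558 beyond 0.5. Between the times they were 4587, and 7882, 240 and 2727 (without the line term). Between the lines they were 337, and 58 without the filter, 513 at a minimum mean of 6, 1169 with a mean-dependent prior, 1 beyond 0.5 and 1 without the treatment term. Leaving out 1 array gave 594 to 2530 genes at 6 h, 4310 to 6563 at 18 h, 1435 to 4252 between the times and 0 to 50 between the lines (limma; 3101 at an unadjusted p under 0.05 with all arrays). Genes whose response differed by 1 log2 unit went from 20 to 12 (averaged probe sets) and 13 (centred) at 6 h, and from 57 to 35 (minimum 6) and 34 (averaged) at 18 h. The number of arrays limits the precision.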

Other observations

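KRT13, a keratin of moist stratified epithelia, had a mean of 3.57 and was too dim to be tested. It read 2.74, 3.35 and 4.80 in KO/LacZ (vehicle, then 6 h, then 18 h) and 3.40, 3.21 and 3.94 in KO/eIF4B. No order was read from these values. The KRT16 change at 18 h was 1.53 in KO/LacZ and 0.72 in KO/eIF4B, that of KRT15 1.04 and 0.53, and that of DST 1.52 and 0.81. For KRT9 the order was the other way, 0.86 and 1.22. These differences between the lines were not tested.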
